A study of Mus musculus with 8 samples.

Results

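The collagen chain genes are the genes whose products assemble, 3 chains at a time, into the collagens of the extracellular matrix. All gene IDs whose mouse symbol reads Col, a number, a and a number were taken from the deposited count table, which gave 44 of its 49315 gene IDs, and these 44 genes encode chains of 27 collagen types. They were measured by bulk RNA sequencing of calvaria, the bones that form the roof of the skull. There were 4 libraries from wild-type mice and 4 from Girk3-/- mice, in which the gene Kcnj9, for a subunit of the GIRK family of potassium channels, is deleted. All mice were female, of the C57BL6 strain and 2 to 3 days of age, and no treatment was given in the labels. The knockout was present in every tissue, so that no single cell type carried it. The labels do not say which mice were littermates.

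A collagen molecule is a triple helix of 3 chains, either 3 copies of 1 chain or a set of different chains. Fibrillar collagens form the banded fibrils that give bone, tendon and skin their tensile strength, and type I, made from the products of Col1a1 and Col1a2, is the main protein of bone matrix. Fibril-associated collagens with interrupted helices (FACIT) sit on the surface of such fibrils. Type IV forms the sheets of basement membranes, type VI the beaded microfibrils around cells, and types VIII and X hexagonal networks. The remaining classes are the anchoring fibrils of type VII, the multiplexins (types XV and XVIII, with several short helices), and the transmembrane collagens. In the skull roof, osteoblasts lay down type I collagen directly, without the cartilage model, rich in type II, that long bones pass through.

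Each library held 35.4 M to 54.3 M counts. Of the 44 genes, 42 passed the filter on low counts and were tested among 17743 genes. Col4a6 and Col19a1 failed it. All 14 osteoblast markers passed the filter, with a mean log2 CPM (counts per 1000000 counts of a library) of 8.66 to 8.76 in wild type and 8.57 to 8.76 in knockout. Kcnj9 held 0, 0, 1 and 4 counts in the wild-type libraries and 2, 5, 7 and 9 in those labelled knockout, so its counts do not check the labels, and knockout below means the libraries labelled so. Skeletal muscle markers set 3 libraries apart: 16 muscle genes summed to 30.4 CPM in wild-type replicate 3, 71.0 in knockout replicate 2 and 196.5 in knockout replicate 3, against 861 to 3369.9 in the other 5. Both genotypes have libraries on each side of this gap, and none of the 16 muscle genes was called between genotypes in edgeR (0 at an unadjusted p under 0.05, median log2 fold change -0.36). The SEs of these log2 fold changes ran from 0.536 (Actn3) to 1.75 (Acta1), so the lack of calls does not show equal muscle RNA in both genotypes. Of the 12 epidermal markers 5 passed the filter, and the summed CPM of all 12 was 8.92 to 14.5. No marker of the 8 cell types looked at was at 0 in all libraries.

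Levels are given as CPM per kilobase, that is CPM divided by the length of the gene's annotated exons, so that genes of different length can be set side by side. For levels, shares and ratios, the value after ± is the SD over the 4 libraries of a group. The collagen chain genes together held 18.5 ± 0.968% of all counts in wild type and 17.8 ± 1.48% in knockout (n = 4 each). Their wild-type means covered the range from 13018 CPM per kilobase (Col1a1) to 0.0065 (Col19a1). Of the 44, 13 had a wild-type mean of at least 100 CPM per kilobase, 8 lay between 10 and 100, 11 between 1 and 10, and 12 under 1. Ranked among the 49056 genes with a length, 4 collagen chain genes were within the 100 highest and 16 within the 1000 highest. Of the 43 pairs of neighbours in the wild-type order, 12 were told apart, in the sense that the wild-type values of one gene did not overlap those of the next, and 5 of these 12 stood at the top of the order. In between, long stretches of the order were not resolved: from Col5a1 at 216 down to Col6a3 at 103 CPM per kilobase, each gene overlapped the next. In knockout 23 genes had another rank than in wild type, by at most 4 places.

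**Figure D1:**
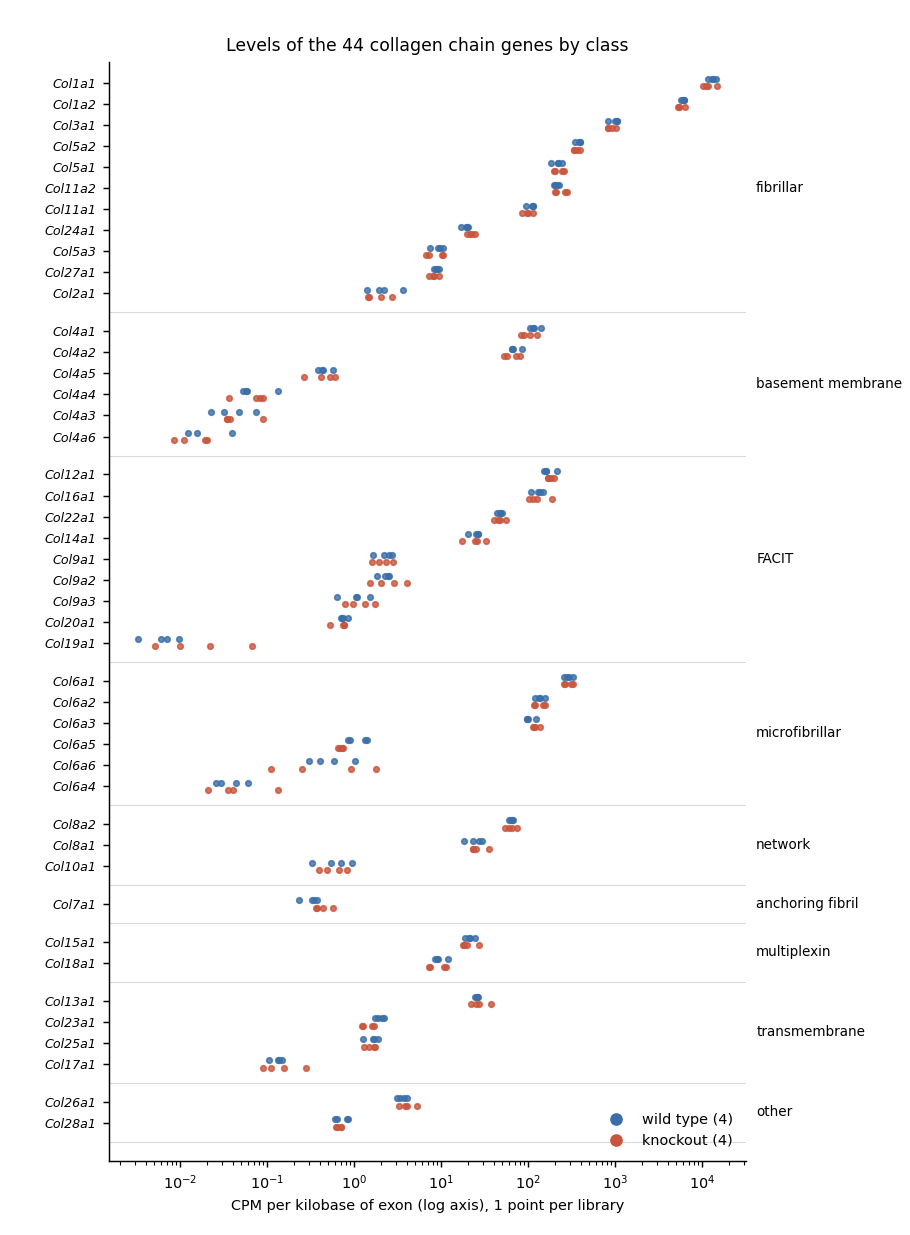
Level of each of the 44 collagen chain genes in CPM per kilobase of exon (log axis), 1 point per library, blue for the 4 wild-type and red for the 4 knockout libraries, grouped by collagen class and ordered by wild-type mean. A value of 0 (Col4a6 in wild-type replicate 3) cannot be drawn on a log axis; the 2 type I genes lie above all others, and the points of wild type and knockout overlap for all genes but Col6a5 and Col23a1 among those tested.

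Type I collagen accounted for most of this RNA. Col1a1 (ENSMUSG00000001506, chromosome 11 from 94936224 to 94953042, plus strand, GRCm38/mm10), which encodes the chain present as a pair in each type I molecule, was at 12766, 13340.5, 11627 and 14340.2 CPM per kilobase in wild-type replicates 1 to 4 and at 14834, 10999, 11686 and 10275 in the knockout replicates. Its wild-type mean ranked 1 among the 49056 genes with an exon length, and 2 when the coding length was used. Its knockout values spanned a wider range than the wild-type values and contained the highest and the lowest library. Col1a2 (ENSMUSG00000029661, chromosome 6 from 4504814 to 4541544, plus strand), which encodes the other chain of type I, ranked 4 among the same genes by exon length. Its rank was 2 by the longest transcript and 3 by the coding length. Col1a2 was at 6078, 6175, 5744 and 6066 CPM per kilobase in wild type and 6337, 5339.5, 5392 and 5229.9 in knockout. Knockout replicates 2, 3 and 4 lay below every wild-type library for Col1a2, and knockout replicate 1 lay above them all. The pair held 15.7 ± 0.757% of all counts in wild type and 14.99 ± 1.46% in knockout (n = 4 each). Of the summed level of all collagen chain genes it made up 85.7 ± 0.354% and 84.8 ± 1.89%, with knockout replicate 4 lowest at 82.1%.

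The ratio of the chains of type I depended on the length used. With the union of all annotated exons, Col1a1 stood at 2.16 ± 0.146 times Col1a2 in wild type and 2.13 ± 0.161 times in knockout (n = 4 each). The exon union of Col1a2 is 12426 bases, whereas its longest annotated transcript has 5348. With the longest transcript of each gene the ratio was 1.03 ± 0.0693 in wild type and 1.02 ± 0.0768 in knockout, and it was above 1 in 5 of the 8 libraries. With the annotated coding length it was 1.08 in wild type. The ratio of the chains is therefore not fixed by these data. The genotypes overlapped, which the choice of length cannot change.

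Of the 11 fibrillar genes, 7 had a wild-type mean of at least 100 CPM per kilobase and all were above 1, and the class made up 94.4 ± 0.314% of the summed collagen level in wild type and 93.9 ± 0.838% in knockout (n = 4 each). Col3a1 (ENSMUSG00000026043, chromosome 1 from 45311538 to 45349706, plus strand), whose product forms type III, a companion of type I in soft connective tissue and vessels, ranked 3 among the collagen genes. It was at 1003, 1036, 819 and 1056 CPM per kilobase in wild type and at 905, 813, 819 and 1009.7 in knockout. Wild-type replicate 3 and knockout replicates 2 and 3 were the lowest libraries. The 250 bases before its start are shown because Col3a1 is the highest collagen gene with a promoter window in the RefSeq table (GRCm38.p6) that overlaps no annotated exon, chr1:45311288-45311537 on the plus strand, with the capitals marking a TATAAA motif:
Col3a1: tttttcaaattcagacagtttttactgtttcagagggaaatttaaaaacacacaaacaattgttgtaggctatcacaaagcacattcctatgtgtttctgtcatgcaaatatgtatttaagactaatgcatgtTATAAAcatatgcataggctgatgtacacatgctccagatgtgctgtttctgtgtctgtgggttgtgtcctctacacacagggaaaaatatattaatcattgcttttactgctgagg
Motifs were searched on both strands in the 250 bases before each start. The 50 bases after it, which the RefSeq windows also hold, were not searched. TATAAA was found in 5 of 38 windows of 35 collagen chain genes (13.2%) and in 12.4% of all 32851 windows, and CCAAT in 13 of 38 (34.2%) and in 33.8%. GGGCGG was found in 22 of 38 (57.9%) and in 32.7%. A match says only that the letters are there.

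Type V collagen, which starts the assembly of type I fibrils and limits their width, was the next most abundant fibrillar type. Col5a2 was at 388, 391, 347 and 379 CPM per kilobase in wild type and at 396, 334, 364 and 333 in knockout. Col5a1 was at 218, 221, 183 and 241 in wild type and at 256, 195, 203 and 243 in knockout, so that Col5a1 lay below Col5a2 in every library (ratio 0.573 ± 0.0462 in wild type and 0.629 ± 0.0759 in knockout, n = 4 each). The remaining type V gene, Col5a3, was far lower, at 9.19 ± 1.33 and 8.59 ± 1.96 CPM per kilobase. Type XI collagen plays the corresponding part in cartilage fibrils, and its chains also occur in other tissues. Col11a2 was at 225, 203, 197 and 214 CPM per kilobase in wild type and at 260.3, 201, 207 and 277 in knockout, with knockout replicates 1 and 4 above all wild-type libraries. Col11a1 was at 107 ± 9.01 and 98.4 ± 11.4. The Col11a1 to Col11a2 ratio was 0.512 ± 0.0354 in wild type and 0.425 ± 0.0810 in knockout, where replicate 4 was lowest at 0.308, and Col11a1 was the lower of the chains in every library under all 3 lengths.

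Among the fibrillar genes of lower level, Col24a1, a fibrillar collagen gene known from forming bone, was at 19.6, 20.2, 17.01 and 19.3 CPM per kilobase in wild type and at 24.2, 21.1, 22.7 and 19.96 in knockout. Knockout replicates 1, 2 and 3 were above all wild-type libraries, while knockout replicate 4 lay inside their range. Col27a1, known from cartilage, was at 8.79 ± 0.455 CPM per kilobase in wild type and 8.25 ± 0.926 in knockout. Col2a1, the gene of the main collagen of cartilage, was the lowest of the class, at 2.28 ± 0.947 and 1.90 ± 0.597, and in wild type it was at 0.000175 times the level of Col1a1.

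Outside type I, fibrillar genes held 60.7 ± 1.83% of the summed level in wild type and 59.5 ± 0.984% in knockout, and type VI microfibrillar genes came next with 16.6 ± 0.682% and 17.6 ± 0.145% (n = 4 each). The 4 knockout values for type VI, from 17.5 to 17.8%, lay above the highest wild-type value of 17.4%, and the wild-type libraries themselves ran from 15.9%. With type I included the type VI shares overlapped, at 2.23 to 2.54% in wild type and 2.42 to 3.18% in knockout. FACIT genes held 11.9 ± 0.631% and 12.5 ± 0.414%, basement membrane genes 5.94 ± 0.420% and 5.32 ± 0.586%, and network genes 2.79 ± 0.263% and 2.93 ± 0.430%. Multiplexins (0.973% in wild type and 0.951% in knockout), transmembrane collagens (0.922% and 0.987%), the unclassified Col26a1 and Col28a1 (0.134% and 0.153%) and Col7a1 (0.00990% and 0.0139%) made up the rest. The Col7a1 shares did not overlap either, at 0.0083 to 0.0108% in wild type and 0.0128 to 0.0167% in knockout, both with type I left out. With type I included the Col7a1 shares still did not overlap, at 0.00115 to 0.00157% and 0.00177 to 0.00298%. Of all tested genes, 4.63% lay higher in knockout without overlap. Shares are sums over genes chosen together, so no test was made of them.

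**Figure D2:**
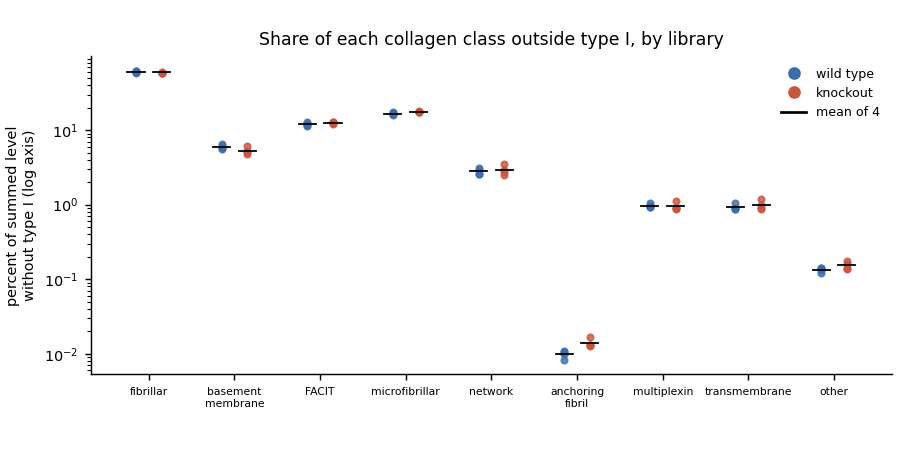
Share of each collagen class in the summed level (CPM per kilobase) of the collagen chain genes other than Col1a1 and Col1a2, in percent on a log axis, 1 point per library with the mean of each group of 4 as a bar. The order of the classes is the same in wild type and knockout for the 5 largest, from fibrillar (60.7% and 59.5%) to network (2.79% and 2.93%).

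Of the 6 type VI genes, the 3 whose chains form the classical molecule each had a wild-type mean of at least 100 CPM per kilobase. Col6a1 was at 290.4, 275, 259 and 327 CPM per kilobase in wild type and at 308, 264, 259 and 326 in knockout. Col6a2 was at 135, 133, 119 and 155 in wild type and at 147, 121, 117 and 157 in knockout. For both, the 3 lowest libraries were wild-type replicate 3 and knockout replicates 2 and 3, and the groups overlapped almost completely. The Col6a1 to Col6a2 ratio was among the steadiest between libraries. By the union of exons it was 2.13 ± 0.0511 in wild type and 2.14 ± 0.0641 in knockout (n = 4 each). Its size depended on the length used: in wild type it was 1.34 with the longest transcript and 1.13 with the coding length. Col6a3, which encodes the longest chain of the molecule, was at 99.96, 96.7, 95.2 and 122 CPM per kilobase in wild type and at 135, 112, 119 and 116 in knockout. Wild-type replicate 4 was the only wild-type library among the knockout values. The related genes Col6a5 at 1.11, Col6a6 at 0.576 and Col6a4 at 0.0396 CPM per kilobase in wild type were far lower. All 3 lie on the minus strand of chromosome 9, in a row from 105687809 to 106096783.

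FACIT genes spanned the widest range of the classes that hold no type I gene. Col12a1, whose product coats fibrils in dense connective tissue, was at 161, 151, 159 and 213 CPM per kilobase in wild type and at 195, 179.8, 169 and 167 in knockout. Wild-type replicate 4 was the highest library and the other 3 wild-type libraries were the lowest. Col16a1 was at 129, 135, 108 and 147 in wild type and at 127, 113, 103 and 189 in knockout, with knockout replicate 4 highest. Col22a1, known from the junction of muscle and tendon, was at 47.3 ± 2.57 and 46.7 ± 5.93, and Col14a1 at 24.6 ± 2.84 and 24.9 ± 6.32 (n = 4 each). The type IX genes, whose products coat the type II fibrils of cartilage, were at 2.26 (Col9a1), 2.24 (Col9a2) and 1.07 (Col9a3) CPM per kilobase in wild type, close to Col2a1. Col9a2 was at 2.49, 2.45, 1.81 and 2.23 in wild type and at 2.87, 1.496, 2.02 and 3.98 in knockout, so that knockout held both the highest and the lowest library. Of the Col9a3 exon bases 6.07% overlap a gene on the opposite strand, and its value is less certain. Col20a1 was at 0.752 ± 0.0588 and 0.698 ± 0.114. Col19a1 had 1, 2, 3 and 2 counts in wild type and 7, 2, 3 and 17 in knockout, which is at or below the floor of 3 counts in all wild-type libraries.

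Basement membrane collagen was carried by the genes of its ubiquitous form. Col4a1 was at 116, 112, 106 and 139 CPM per kilobase in wild type and at 125, 88.4, 83.3 and 105 in knockout, and Col4a2 at 70.3 ± 9.83 and 64.9 ± 12.99 (n = 4 each). For Col4a1, knockout replicates 2, 3 and 4 lay below all wild-type libraries. The genes start 21 bases apart on chromosome 8 and run in opposite directions. Col4a5 was at 0.452, Col4a4 at 0.0753 and Col4a3 at 0.0440 CPM per kilobase in wild type; the products of these genes form the network of the kidney filter and some epithelia. Col4a4 and Col4a3 start 72 bases apart on chromosome 1, and 5.65% of the exon bases of Col4a3 overlap a gene on the opposite strand. Col4a6, whose start lies 1309 bases from that of Col4a5 on chromosome X, had 14, 4, 0 and 6 counts in wild type and 7, 5, 3 and 6 in knockout. The 0 in wild-type replicate 3 allows up to 0.0671 CPM (3 counts).

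Of the network collagens, Col8a2 was at 63.4 ± 2.61 CPM per kilobase in wild type and 63.2 ± 8.75 in knockout (n = 4 each). Its partner Col8a1, with which it forms the type VIII network known from the cornea and from vessel walls, was at 29.2, 18.3, 26.8 and 22.9 in wild type and at 23.2, 35.2, 24.7 and 22.9 in knockout, with knockout replicate 2 well above the rest. Col10a1, the gene that marks enlarged chondrocytes before cartilage is replaced by bone, was at 0.628 ± 0.266 and 0.585 ± 0.189. Col15a1, the higher of the multiplexin genes, was at 21.3 ± 2.45 and 20.5 ± 4.22. Col18a1, from whose product endostatin is released, was at 9.19, 8.93, 8.55 and 11.97 in wild type and at 11.2, 7.18, 7.41 and 10.8 in knockout, where replicates 1 and 4 were high and replicates 2 and 3 low.

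The transmembrane collagens were led by Col13a1, known from the nerve and muscle junction and from bone, at 25.4 ± 0.876 CPM per kilobase in wild type and 27.6 ± 6.47 in knockout (n = 4 each). Col25a1 was at 1.61 ± 0.256 and 1.54 ± 0.194. Col17a1, whose product anchors epidermal cells to their basement membrane, was at 0.130 ± 0.0184 and 0.158 ± 0.0857. Col7a1, whose product forms the fibrils that tie this membrane to the dermis, was at 0.321, 0.339, 0.233 and 0.374 in wild type and at 0.433, 0.371, 0.365 and 0.563 in knockout. For Col7a1 the knockout range began just under the highest wild-type library. The epidermal marker sum was 9.88 to 12.2 CPM in wild type and 8.92 to 14.5 in knockout, highest in the same library as Col7a1 and Col17a1, knockout replicate 4, and its part in their values was not tested. Col26a1, which belongs to no larger class, was at 3.72, 3.08, 3.31 and 4.08 in wild type and at 4.07, 3.77, 3.28 and 5.26 in knockout. Col28a1, known from sheaths of peripheral nerve, was at 0.723 ± 0.129 and 0.665 ± 0.0444.

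The comparison of genotypes asks whether the mice without Girk3, which the study examined for bone mass, differ in transcripts of the bone matrix. None of the 42 tested collagen chain genes differed between knockout and wild type by edgeR's quasi-likelihood test at an adjusted p (Benjamini-Hochberg over all tested genes) under 0.05, in either direction; over all 17743 genes 1.32% were called. At an unadjusted p under 0.05 there were 5 (11.9%), 3 higher and 2 lower, against 17.4% of all tested genes, so that the collagen share was not above the background. The groups did not overlap, with knockout lower, for 2 of the 42 (background 5.96%), and with knockout higher for 0 (background 4.63%). Log2 fold changes, knockout over wild type, lay between -0.67 and 0.47, with 19 above 0 and 23 below, and their median was -0.01, against -0.000295 over all tested genes. DESeq2 called 2 collagen chain genes, both lower (background 6.08%), and limma-voom 0 (background 0.941%). For 30 of the 42 genes the whole 95% interval lay within 1.5-fold of no change, and for 36 within 2-fold. In bulk tissue, fewer cells of a type and less RNA per cell cannot be told apart.

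**Figure D3:**
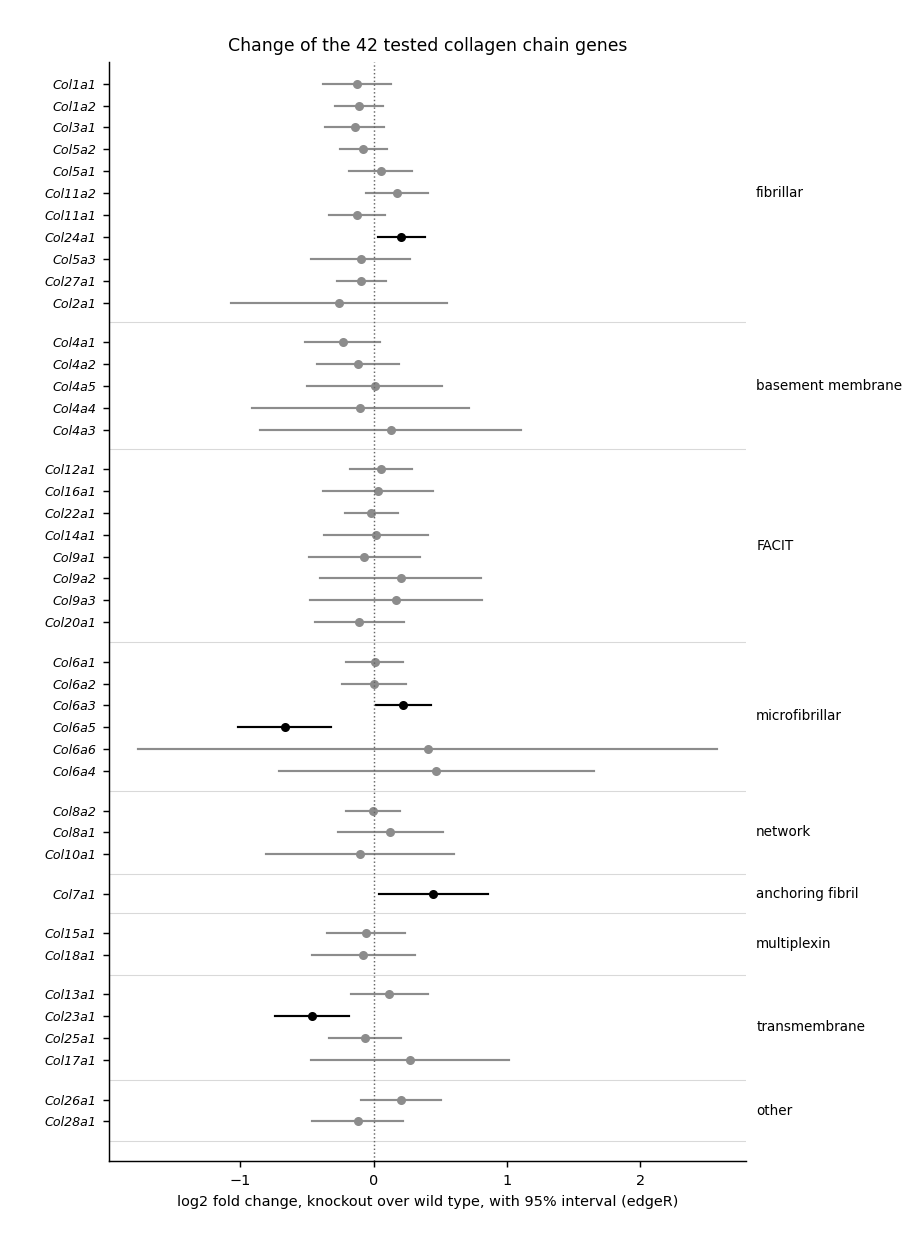
Log2 fold change (knockout over wild type) of the 42 tested collagen chain genes with its 95% interval from edgeR, grouped by class; black marks the 5 genes with an unadjusted p under 0.05. The intervals of Col1a1 and Col1a2 include 0, and that of Col6a6 is the widest.

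By class, 8 of 11 fibrillar genes had a log2 fold change below 0 (median -0.10), as did 3 of 5 tested basement membrane genes (median -0.10) and both multiplexin genes (median -0.07). Above 0 were 5 of 8 tested FACIT genes (median 0.03) and 4 of 6 type VI genes (median 0.11). Network (median -0.0049) and transmembrane genes (median 0.03) were divided, and no class had a called gene. For type I, the log2 fold change was -0.12 ± 0.116 for Col1a1 (SE, edgeR adjusted p = 0.625), which is 0.918-fold with a 95% interval of 0.770 to 1.09, and -0.11 ± 0.0839 for Col1a2 (adjusted p = 0.530, 0.927-fold, 0.817 to 1.05). Col3a1 was at -0.14 ± 0.102 (adjusted p = 0.498), Col5a2 at -0.08 ± 0.0808 (0.669), Col5a1 at 0.05 ± 0.109 (0.844) and Col11a2 at 0.17 ± 0.107 (0.426). Among the other genes of high level, Col6a1 was at 0.01 ± 0.0985 (adjusted p = 0.981), Col12a1 at 0.06 ± 0.108 (0.841), Col16a1 at 0.03 ± 0.184 (0.945) and Col6a2 at -0.00051 ± 0.110 (0.999). Of the 14 osteoblast markers 1 was called, lower in knockout (Bglap, the osteocalcin gene, whose reads can be shared with Bglap2, log2 fold change -0.48 ± 0.101, edgeR adjusted p = 0.0383), and 5 had an unadjusted p under 0.05, 4 of them lower. Over all tested genes 1.32% were called and 17.4% had an unadjusted p under 0.05. The median over the 14 markers was 0.0042, and their part in the type I values was not tested. For Col1a1 and Col1a2 a change of 1.5-fold or more in either direction lay outside the interval.

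The 2 genes with the smallest p were lower in knockout, and both are of low level. Col6a5 (ENSMUSG00000091345, chromosome 9 from 105856078 to 105960643, minus strand), which encodes a chain of the type VI family, was at 0.851, 0.886, 1.31 and 1.39 CPM per kilobase in wild-type replicates 1 to 4 and at 0.715, 0.684, 0.653 and 0.746 in the knockout replicates. All knockout libraries lay below all wild-type libraries, and the wild-type libraries were themselves divided into a lower and a higher pair. The log2 fold change was -0.67 ± 0.159 (SE), or 0.630-fold with a 95% interval of 0.495 to 0.801, from 258 to 632 counts per library, with an adjusted p of 0.0631 by edgeR. It was called by DESeq2 (adjusted p = 0.00534), in edgeR without the count filter (0.0164) and without wild-type replicate 1 (0.0303), and not by limma-voom (0.114). Without the 3 libraries poor in muscle RNA it was at -0.51 (adjusted p = 0.576). Col23a1 (ENSMUSG00000063564, chromosome 11 from 51289920 to 51583918, plus strand), a transmembrane collagen gene, was at 2.06, 1.89, 1.73 and 2.20 CPM per kilobase in wild type and at 1.60, 1.21, 1.25 and 1.67 in knockout. Again the groups did not overlap, although the highest knockout and the lowest wild-type library were close. Its log2 fold change was -0.46 ± 0.128 (SE, 0.727-fold, 95% interval 0.599 to 0.882, edgeR adjusted p = 0.105). Col23a1 was called by DESeq2 (adjusted p = 0.0253) and in edgeR without knockout replicate 4 (0.0433), not by limma-voom (0.109), and was at -0.32 without the 3 libraries poor in muscle RNA (adjusted p = 0.563).

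The 250 bases before the start of each are shown because these were the only collagen chain genes called by any of the tests. They lie at chr9:105960644-105960893 on the minus strand and at chr11:51289670-51289919 on the plus strand (RefSeq, GRCm38.p6), with the capitals marking GGGCGG or its reverse complement:
Col6a5: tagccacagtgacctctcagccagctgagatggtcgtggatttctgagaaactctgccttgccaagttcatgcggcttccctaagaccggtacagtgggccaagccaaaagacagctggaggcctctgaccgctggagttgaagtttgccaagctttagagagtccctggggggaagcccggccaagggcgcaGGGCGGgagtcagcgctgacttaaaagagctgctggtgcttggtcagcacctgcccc
Col23a1: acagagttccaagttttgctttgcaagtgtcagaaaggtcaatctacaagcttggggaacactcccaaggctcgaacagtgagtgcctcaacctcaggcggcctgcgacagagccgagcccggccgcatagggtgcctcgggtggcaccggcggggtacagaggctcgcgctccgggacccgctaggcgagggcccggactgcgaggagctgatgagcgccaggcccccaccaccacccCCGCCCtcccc
Each holds 1 such match, found in the reverse orientation for Col23a1, and neither holds TATAAA or CCAAT.

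Of the 3 genes higher in knockout at an unadjusted p under 0.05, none passed. Col7a1 had a log2 fold change of 0.45 ± 0.187 (SE, 1.36-fold, 95% interval 1.03 to 1.81, edgeR adjusted p = 0.248), from 107 to 215 counts per library. Col6a3, singled out after its value was seen, was at 0.22 ± 0.0947 (1.17-fold, 1.01 to 1.34, adjusted p = 0.257). Col24a1 was at 0.21 ± 0.0812 (1.16-fold, 1.02 to 1.31, adjusted p = 0.216). In each of the 3, at least 1 knockout library lay within the wild-type range. In the remaining classes the smallest p belonged to Col4a1, at -0.23 ± 0.130 (SE, edgeR adjusted p = 0.379), Col9a2, at 0.20 ± 0.269 (0.745), Col26a1, at 0.20 ± 0.137 (0.475), Col8a1, at 0.13 ± 0.175 (0.758), and Col18a1, at -0.08 ± 0.171 (0.859). The summed CPM of the 12 endothelial markers, cells that rest on type IV collagen, was 818 to 918 in wild type and 715 to 891 in knockout. The log2 fold change of 11 of these markers was below 0 (median -0.12), none was called, and their part in the Col4a1 value was not tested.

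**Figure D4:**
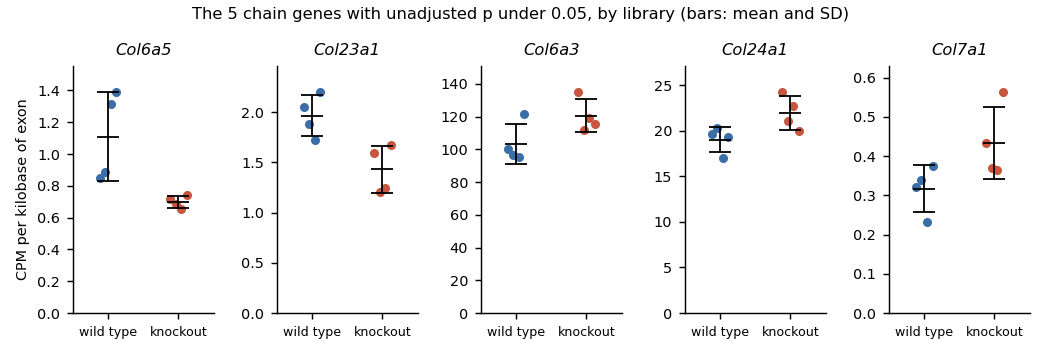
Level in CPM per kilobase of exon (linear axes from 0, 1 scale per gene) of the 5 collagen chain genes with an unadjusted p under 0.05, 1 point per library, with the mean and SD of each group of 4. The groups are apart for Col6a5 and Col23a1, which are lower in knockout, and touch or overlap for Col6a3, Col24a1 and Col7a1.

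Ratios of chains that share a molecule, or pairs compared for their role, were computed within each library for 14 pairs, which removes the scaling between libraries. In 1 of the 14, Col4a1 over Col4a2, the groups did not overlap: the ratio was 1.72, 1.73, 1.64 and 1.64 in wild type and 1.57, 1.57, 1.60 and 1.46 in knockout, or 1.68 ± 0.0490 against 1.55 ± 0.0613 (n = 4 each). Another gene length multiplies the ratio by 1 constant in every library and cannot change whether the groups overlap. The gap between the lowest wild-type library, at 1.64, and the highest knockout library, at 1.60, was smaller than the SD of either group. Since the pair was singled out among 14 after the values were seen, it has no test. Other ratios overlapped, among them Col6a3 over Col6a2, at 0.763 ± 0.0364 and 0.900 ± 0.118, and Col8a2 over Col8a1, at 2.70 ± 0.596 and 2.46 ± 0.611. All these ratios are by the union of exons. With the coding length the wild-type means were 0.345 for Col6a3 over Col6a2 and 1.65 for Col8a2 over Col8a1.

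The libraries poor in muscle RNA were also low in a part of the collagen genes. In 14 of the 42 tested genes (33.3%) wild-type replicate 3 and knockout replicates 2 and 3 were all below the other 5 libraries, against 5.08% of all tested genes. In 0 of the 42 were all 3 above the other 5 (background 3.34%). The 14 included the cartilage genes Col2a1, Col9a1, Col9a2 and Col9a3, the vessel and basement membrane genes Col4a2, Col15a1 and Col18a1, the type VI genes Col6a1, Col6a2 and Col6a6, and Col3a1, Col5a1, Col5a3 and Col16a1. Other genes linked above to the same tissues were not among the 14. These were Col10a1, Col27a1, Col11a1 and Col11a2 for cartilage, Col4a1 for basement membrane and Col8a1 for vessel walls. Col6a6 had the widest gap, at 0.302, 0.110 and 0.249 CPM per kilobase in the 3 libraries and 0.401 to 1.78 in the other 5. For Col2a1 the mean of the 3 was 0.572 times that of the 5, for Col3a1 0.815 times and for Col8a1 1.24 times. The genes of type I were not among the 14. Markers of other tissues were lower in the same libraries in part, by mean log2 CPM and not by summed CPM. The mean log2 CPM of 8 tendon markers was 4.82 to 5.29 in the 3 libraries and 5.73 to 6.19 in the other 5. That of the 5 tested epidermal markers was 0.062 to 0.23 and 0.41 to 1.05. For the 12 endothelial markers the 3 libraries, at 5.55, 5.60 and 5.721, were just below the other 5, at 5.724 to 5.89. For the osteoblast, meningeal, neural and chondrocyte markers the 3 libraries overlapped the other 5, as in 2.33 to 2.63 and 2.42 to 2.91 for the 12 tested chondrocyte markers. By summed CPM the 3 libraries overlapped the other 5 for tendon too (2332 to 2534 and 2318 to 2805). The same held for epidermis, summed over all 12 listed markers (8.92 to 9.97 and 9.09 to 14.5), and endothelium (715 to 818 and 770 to 918). This split of the libraries comes from their muscle RNA and not from the study's groups, so the values are a description, and the part of other tissues in them was not tested.

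**Figure D5:**
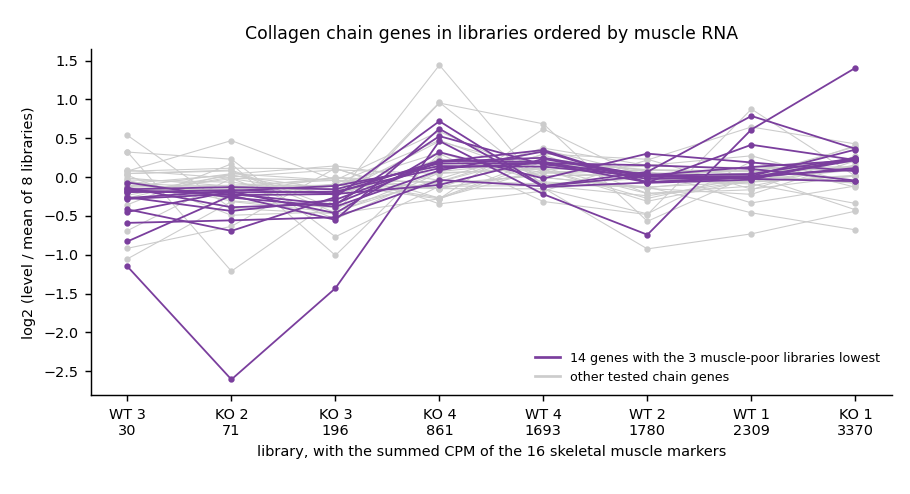
Log2 of the level of each tested collagen chain gene over its mean in all 8 libraries, with the libraries ordered by the summed CPM of 16 skeletal muscle markers (printed under each). Purple lines are the 14 genes for which wild-type replicate 3 and knockout replicates 2 and 3 (left) are the 3 lowest libraries, and grey lines are the other 28.

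Genes that act on collagen gave few calls. None of the 22 genes for folding and modifying procollagen was called (2 at an unadjusted p under 0.05, median log2 fold change 0.05), none of 12 tested genes for cleaving procollagen and crosslinking fibrils (2, median -0.0052) and none of 11 tested collagen receptor genes (4, median 0.06). In collagen degradation, 11 of 14 genes had a log2 fold change below 0 (median -0.13). An unadjusted p under 0.05 was found for 5, 4 of them lower, and 1 gene was called, lower in knockout. This gene was Mmp13, the main collagenase of bone and cartilage in mice, which fell from 2541 ± 638 CPM in wild type to 1296 ± 89.5 in knockout (n = 4 each; log2 fold change -0.97 ± 0.149, edgeR adjusted p = 0.0135). Its adjusted p was over the threshold when wild-type replicate 4 (0.0514), knockout replicate 2 (0.0564) or knockout replicate 3 (0.0510) was left out. Of 16 transcription factor genes known to act on collagen genes 1 was called, 3 had an unadjusted p under 0.05, and the median was 0.08. Sox5, which with Sox9 and Sox6 drives Col2a1 and other cartilage genes, rose from 5.47 ± 0.515 to 7.98 ± 0.671 CPM (log2 fold change 0.54 ± 0.114, edgeR adjusted p = 0.0385), while Col2a1 itself was at -0.26 ± 0.342 (adjusted p = 0.747). The Sox5 call was lost when any 1 library other than knockout replicate 4 was left out (adjusted p 0.0718 to 0.142). In all, 2 of these 75 tested genes were called, and 1.32% of all tested genes. The background at an unadjusted p under 0.05 was 17.4% of all tested genes.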

How the data were processed

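The deposited values are raw counts for each Ensembl gene ID and each of the 8 libraries, not normalized by the authors. Per the labels' protocols, total RNA was extracted with Trizol and sequenced from NEBNext Ultra II RNA libraries. The submitters' processing notes name bcl2fastq 2.17, STAR 2.5.2b, featureCounts of Subread 1.5.2 and the build mm10. Annotation release and strand setting are not given in these sources, and genes that overlap on opposite strands may share reads. Groups came from the sample titles. No statement on separate litters or pooling is in the labels, so p-values measure the spread between these samples, which may be in part technical.

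Symbols were found for 48970 of 49315 gene IDs, and exon lengths and coordinates for 49056 (GENCODE mouse annotation of build GRCm38). Genes passing filterByExpr (minimum count 10, minimum total count 15) were compared with the two-sided quasi-likelihood test of edgeR 4.0.16 in R 4.3.3 (TMM factors, robust shrinkage) and Benjamini-Hochberg adjustment at 0.05, on the whole table. Errors of log2 fold changes are standard errors worked back from the log2 fold change and the F statistic of that test. The 95% intervals are therefore approximate, lie symmetrically around the log2 fold change and use the degrees of freedom of the fit. Levels are CPM, scaled by TMM factors, per kilobase of the union of exons, and a prior count of 2 was used for log2 CPM. The floor of 3 counts corresponds to at most 0.0816 CPM, and floors cover counting error only. The code was tested on simulated data.

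The collagen chain genes, their classes, the marker and pathway lists and the alternatives were chosen with earlier results of these data known. Values in every library are given for the 10 genes of highest level, the gene of smallest p in each class and any called gene, and every other collagen chain gene is given by its level or counts. Col6a3 was added for its unadjusted p. Alternatives were other scalings, filters and lengths, DESeq2 1.42.0, limma-voom (limma 3.58.1), the replicate number as a block, the muscle marker mean as a covariate, and leaving out libraries. Library sizes without the collagen counts and the annotated coding length were added after the data were seen. All 8 samples entered the comparison, and matplotlib 3.10.9 drew the figures.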

Additional observations from a re-analysis of the deposited data

Results flagged for a closer look

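A gap rule for groups of 4 libraries (Dixon's test at 95%) was applied to 110 groups of levels and shares. It marked a library far from the other 3 in 9 of them. About 5.5 would be expected for independent groups of normally distributed values. The shares are sums of the same genes whose levels were looked at, so 5.5 is only a rough guide. Among the abundant genes, Col1a2 was at 6337 CPM per kilobase in knockout replicate 1, against 5229.9 to 5392 in the other knockout libraries. The share of all counts in collagen chain genes was 19.98% in the same library, against 16.8 to 17.3%. Wild-type replicate 4 was apart for Col12a1, at 213 CPM per kilobase against 151 to 161, and for Col4a2, at 84.9 against 64.4 to 67.3. Col8a1 was at 35.2 in knockout replicate 2, against 22.9 to 24.7.

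The remaining 4 concern low levels. Col20a1 was at 0.527 CPM per kilobase in knockout replicate 3, against 0.737 to 0.766 in the other knockout libraries. For Col4a4 wild-type replicate 1 stood at 0.134 and the other wild-type libraries at 0.0521 to 0.0585, and Col4a3 at 0.0901 in knockout replicate 4, against 0.0340 to 0.0374. Col7a1, the anchoring fibril gene, made up 0.00298% of the summed collagen level in knockout replicate 4, against 0.00177 to 0.00193%. The causes were not tested.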

How the results depend on the processing

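Under the 20 alternatives, 0 collagen chain genes were called higher in knockout, and the median log2 fold change of the tested ones moved by less than the SD between libraries (0.147). The number called lower was 0 in the main edgeR setting, 1 without the count filter, 2 by DESeq2, and 0 to 1 with each library left out in turn. The cause was not tested. Correlations of same-numbered deviations from the group means were 0.255, -0.179, 0.340 and -0.005, and not every sample correlated best with its own number. Wild-type replicate 3 correlated best with knockout replicate 2 (0.556), and both are poor in muscle RNA. Because the libraries also differ in muscle RNA, these correlations cannot decide whether the replicate numbers pair the samples. With the replicate number as a block, 0 collagen chain genes were called either way, and 126 genes in all against 234. Over all genes the number called ran from 8 without the 3 libraries poor in muscle RNA to 952 by DESeq2.

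The fibrillar share of the summed level was 95.3% in wild type and 94.9% in knockout with the longest transcript, and 95.1% in wild type with the coding length, because the lengths differ. Of the 10 highest genes 9 remained among the 10 highest with either length.

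Of 400 log2 fold changes of 20 named genes, 368 kept their direction and side of the threshold, 5 passed it (Col6a5 and Col23a1) and 27 reversed, all in genes whose change was at most 0.20 in size and not called. Col6a2 reversed most: 0.053 with library totals, 0.0059 with RLE factors and by DESeq2, 0.019 with upper quartile factors, 0.011 with a mean of at least 1 CPM, 0.016 with the muscle covariate and 0.11 without the 3 libraries. Without those 3, Col8a1 was at -0.016 and Col18a1 at 0.14, and without the count filter Col6a1 was at -0.0030. With single libraries left out the ranges were -0.050 to 0.073 (Col6a1), -0.017 to 0.12 (Col5a1), -0.0023 to 0.18 (Col12a1), -0.073 to 0.070 (Col6a2), -0.18 to 0.14 (Col16a1), -0.072 to 0.41 (Col9a2), -0.032 to 0.23 (Col8a1) and -0.19 to 0.039 (Col18a1).

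Depth limits Col4a6 and Col19a1, which had at most 14 and 17 counts in a library and were not tested. The widest 95% interval, that of Col6a6 (57 to 753 counts), ran from 0.294-fold to 5.97-fold, and depth was not tested as its cause: Col28a1, with 114 to 202 counts, had 0.727-fold to 1.17-fold. The alternative with lengths of RefSeq proteins was not run, since no protein table was used here.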
